A study of Homo sapiens with 4 samples.

Results

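The CC chemokines CCL2, CCL3, CCL4, CCL5, CCL7, CCL8, CCL20, CCL26 and CCL28 were followed through 4 expression arrays of Hs746T cells. Every probe of these 9 genes was taken, matched by its RefSeq accession, which gave 10 of the 34127 probes on an array and 9 of the 19740 genes that the probes name. CCL4 had 2 probes, and the CCL2 probe was spotted 10 times on each array.

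Hs746T is an established gastric carcinoma cell line that carries both an exon skipping mutation and an amplification of MET, the receptor tyrosine kinase for hepatocyte growth factor. All cells were grown in DMEM with serum. They received the solvent DMSO, the MET kinase inhibitor PHA665752, a scrambled siRNA (sc siRNA) or a MET siRNA, and the siRNA arrays were made 48 h after transfection. The dose of PHA665752 and the exposure time before the array are not given in the sources used here. There was 1 array per condition, so no replicate error or test could be had, and every difference is between 2 arrays. The inhibitor was set against DMSO and MET siRNA against sc siRNA, and the controls were set against each other. The last difference includes transfection and any difference in culture time and shares an array with each of the other pairs.

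Chemokines are small secreted proteins that steer migrating leukocytes through G protein-coupled receptors, and those of the CC class carry their first cysteines side by side. CCL2, CCL7 and CCL8 attract monocytes through CCR2 and related receptors, while CCL3, CCL4 and CCL5 attract macrophages and T cells. CCL20 is the ligand of CCR6 on dendritic cells and T cells, CCL26 attracts eosinophils through CCR3, and CCL28 is a mucosal epithelial chemokine that acts through CCR10. Several of these genes are textbook targets of NF-kB in epithelial cells stimulated by inflammatory signals.

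All values refer to the processed signal, the linear intensity of a spot after background subtraction. Log2 ratios between arrays were taken after each array was scaled to its 75th percentile, which lay at signals of 990.1 in DMSO, 853 under PHA665752, 831 after sc siRNA and 858 after MET siRNA. The error after ± is Feature Extraction's own estimate for the spot, which does not cover differences between cultures. Where just 1 of the 2 signals stood well above background, the change was given as a bound if that signal was the higher after scaling. The sign of a bound is therefore fixed by which array passed. Where neither signal stood well above background, no ratio was formed. Probes well above background made up 61.1% of all probes after MET siRNA and between 67.4% and 68.2% on the other arrays. The lowest signal well above background was 17.4 after MET siRNA, 10.2 after sc siRNA, 10.8 in DMSO and 12.3 under PHA665752. MET itself, the target, gave signals of 221451 in DMSO, 100492 under PHA665752, 190010 after sc siRNA and 77853.5 after MET siRNA. Its log2 ratio was -0.93 ± 0.20 under PHA665752 and -1.33 ± 0.20 after MET siRNA.

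The keratins KRT8, KRT18 and KRT19 and the epithelial adhesion molecule EPCAM were well above background on all 4 arrays, with KRT8 between 3868 and 4305, as were the mesenchymal genes CDH2, FN1 and ZEB1. CDH17, an intestinal cadherin, was not well above background on any array, and CDH1 had signals of only 33.0, 30.2 and 13.1 in DMSO, PHA665752 and sc siRNA and was not well above background after MET siRNA. Among 12 leukocyte markers, 6 were well above background on all 4 arrays and 3 on none, by the brightest probe of each gene. Over every probe, named or not, these shares were 58.2% and 27.0%. The 6 were the pan-leukocyte phosphatase PTPRC (signals of 22.7 to 37.8), the T cell gene CD3D (24.0 to 32.2) and the myeloid genes CD14 (113 to 140.1), CSF1R (149 to 339), ITGAM (56.2 to 73.9) and CD68. The T cell gene CD3E and the B cell gene MS4A1 were among the 3.

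The 5 chemokines with a probe well above background on at least 3 arrays were CCL3, CCL4, CCL5, CCL20 and CCL28. CCL2 passed only after MET siRNA and CCL26 only after sc siRNA. The probes of CCL7 and CCL8 and the second CCL4 probe passed on none of the arrays. Of the 10 probes, 4 passed on all 4 arrays and 3 on none, against 58.2% and 27.0% of all probes.

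**Figure D1:**
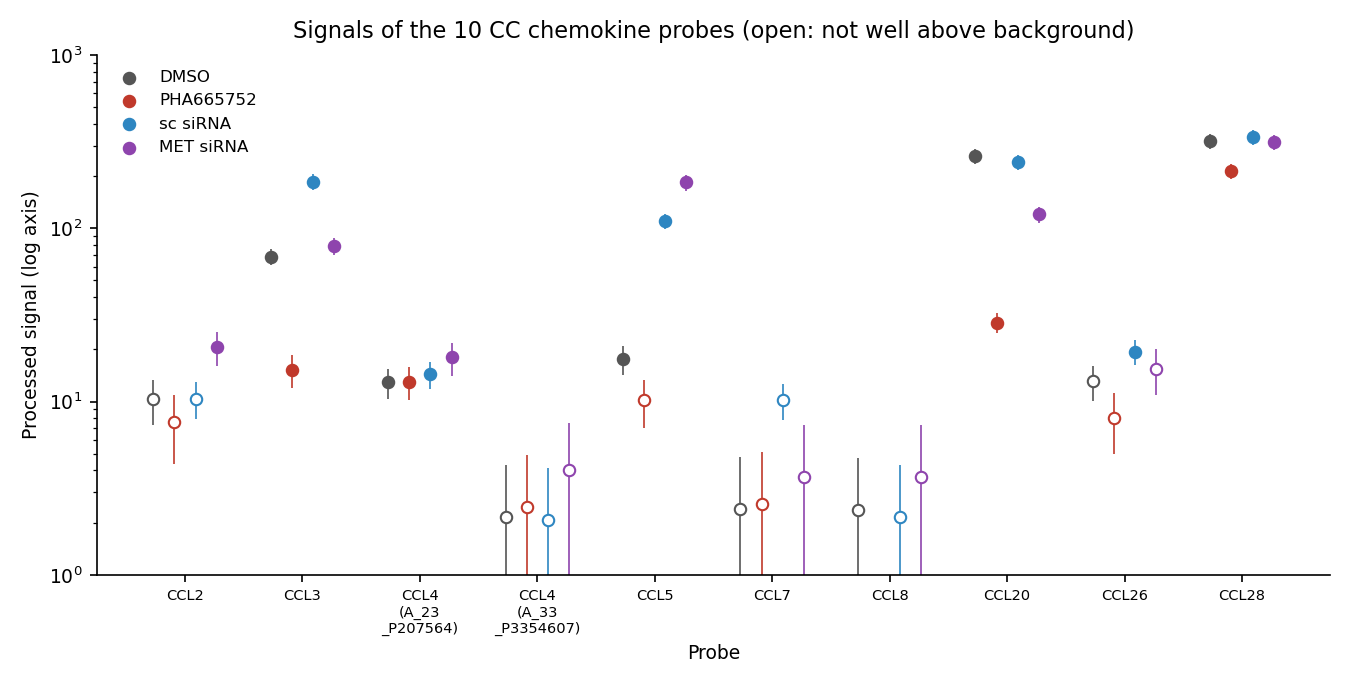
Processed signal (log axis) of each of the 10 CC chemokine probes on the 4 arrays, before scaling. Points are single arrays (the mean of the usable spots for CCL2), filled where the probe was well above background and open where it was not, and bars are the software's error estimate, cut off at the lower edge of the axis. CCL8 has no point for PHA665752 because its spot carried an outlier mark. CCL20 stands at 28.6 under PHA665752 against 261 in DMSO, and CCL5 stands above 100 on the siRNA arrays only.

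The upstream sequences of CCL20 and CCL3 are shown because these genes had the lowest log2 ratios of the group in both MET pairs. RefSeq promoter windows of GRCh38.p14 matched 6 of the 9 genes; CCL2, CCL4 and CCL5 were not among them. The 250 bases upstream of the start are given 5′ to 3′ on the coding strand, for CCL20 at chr2:227813592-227813841 on the plus strand and for CCL3 at chr17:36090144-36090393 on the minus strand, the most upstream of its 3 annotated windows. Capitals mark GGGNNNNNCC or its reverse complement GGNNNNNCCC, a loose form of the NF-kB element, and TATAAA, the TATA box.
CCL20: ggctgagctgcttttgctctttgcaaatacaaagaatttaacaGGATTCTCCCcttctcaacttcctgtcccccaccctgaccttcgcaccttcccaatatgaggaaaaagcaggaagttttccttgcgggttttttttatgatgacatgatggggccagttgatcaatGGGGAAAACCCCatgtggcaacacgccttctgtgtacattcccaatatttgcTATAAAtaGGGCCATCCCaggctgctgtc
CCL3: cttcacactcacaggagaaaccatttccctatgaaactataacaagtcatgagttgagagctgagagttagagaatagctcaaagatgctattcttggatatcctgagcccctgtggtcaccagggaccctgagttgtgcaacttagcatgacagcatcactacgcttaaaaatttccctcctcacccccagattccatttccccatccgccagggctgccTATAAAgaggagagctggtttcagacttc
The CCL20 window held 7 matches to the NF-kB letters when both strands and overlaps were counted, which merge into 3 stretches. Counted from the start, the nearest stretch began at position -21, beside the TATA box, whose first base was at -29. The CCL3 window printed held none of them and a TATA box that also began at -29. Of the other CCL3 windows, the one at chr17:36089854-36090103 held 1 NF-kB match, GGGTATCACC, whose first base was at position -112 from its start. The AP-1 letters TGANTCA were in neither window. Over 35116 RefSeq windows of 250 bases, 54.4% held at least 1 NF-kB match, 6.57% an AP-1 match and 10.7% a TATA match on either strand. A match describes these letters only. The motifs were picked after the sequences had been seen.

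With PHA665752, CCL20 and CCL3 were lower and CCL28 a little lower, and none of the chemokines was more than 2-fold higher. Of the 5 probes with a ratio or bound, 2 were more than 2-fold lower, where 7.43% of all 23471 probes with a ratio were that much lower, 12.8% that much higher and 20.3% past 2-fold in either direction. Of the 5, 4 lay below 0 and 1 above. Their median log2 ratio was -0.37, against 0.09 over all probes. CCL5, below 0, was a bound, whose sign was fixed by which array passed. Over the 4 measured on both arrays the median was -1.16, against 0.08 over all such probes.

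CCL20 gave processed signals of 261 ± 26.2 in DMSO and 28.6 ± 3.76 under PHA665752. It was well above background on each array. After scaling, CCL20 was 7.88-fold lower with the inhibitor, a log2 ratio of -2.98 ± 0.24, and only 0.354% of the probes had a lower ratio. The order of its levels over the arrays ran from PHA665752, the lowest, through MET siRNA to both controls, which did not differ beyond the software error (log2 ratio 0.13 ± 0.20). In a bulk sample, fewer cells making a transcript and less transcript per cell cannot be told apart.

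CCL3, also called macrophage inflammatory protein 1-alpha, gave signals of 68.6 ± 7.42 in DMSO and 15.2 ± 3.30 under PHA665752. The latter lay close to the lowest signal well above background on that array. The scaled ratio was 3.89-fold lower, or -1.96 ± 0.35 on the log2 scale, and 1.53% of the probes had a lower ratio.

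CCL28 gave signals of 319 ± 32.0 in DMSO and 213 ± 21.4 under PHA665752. Its log2 ratio of -0.37 ± 0.20 was larger than the software error but well within 2-fold. CCL4, which like CCL3 attracts macrophages and T cells, gave 12.9 ± 2.52 and 12.9 ± 2.78 in the same order, and its log2 ratio of 0.22 ± 0.42 lay within the software error. CCL5 was at 17.5 ± 3.34 in DMSO and not well above background under PHA665752, at 10.1 ± 3.14, which bounds the log2 ratio at -0.29 or lower. Signals this near the background do not resolve a larger difference.

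With MET siRNA, the same 2 chemokines, CCL3 and CCL20, were more than 2-fold lower than after sc siRNA. They were 2 of the 7 probes with a ratio or bound, where 0.811% of all 21454 probes were that much lower, 2.12% that much higher and 2.93% past 2-fold in either direction. The median log2 ratio of the 7 was -0.14 against -0.03 over all probes, with 4 below 0 and 3 above. CCL2, above 0, and CCL26, below 0, were bounds, whose signs were fixed by which array passed. Over the 5 measured on both arrays the median was also -0.14, against -0.02 over all such probes.

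CCL3 gave signals of 186 ± 18.7 after sc siRNA and 78.6 ± 8.97 after MET siRNA. That was 2.44-fold lower after scaling, a log2 ratio of -1.29 ± 0.22, and 0.457% of the probes had a lower ratio. After scaling, CCL3 stood at 6.93% of the array's 75th percentile in DMSO and at 9.16% after MET siRNA, a log2 difference of 0.40. CCL20 gave 240.1 ± 24.1 after sc siRNA and 120.3 ± 12.5 after MET siRNA, 2.06-fold lower at a log2 ratio of -1.04 ± 0.21. This lies just past the 2-fold mark, with the software error reaching to both sides of it, and 0.722% of the probes had a lower ratio. Both genes were lower after either way of suppressing MET, by a smaller amount with the siRNA (log2 ratio -1.04 against -2.98 for CCL20, and -1.29 against -1.96 for CCL3). Whether those sizes differ was not tested, with 1 array each.

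CCL5 went the other way from CCL3 between the siRNA arrays, with signals of 109.6 ± 11.2 after sc siRNA and 184 ± 18.8 after MET siRNA. It was 1.62-fold higher, at a log2 ratio of 0.70 ± 0.21, and stood at the 96.0th percentile of the probes. CCL28 was at 337 ± 33.8 and 315 ± 31.7, a log2 ratio of -0.14 ± 0.20 that lay within the software error. CCL4 was at 14.3 ± 2.51 and 18.0 ± 3.89, also within it, at 0.28 ± 0.40.

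**Figure D2:**
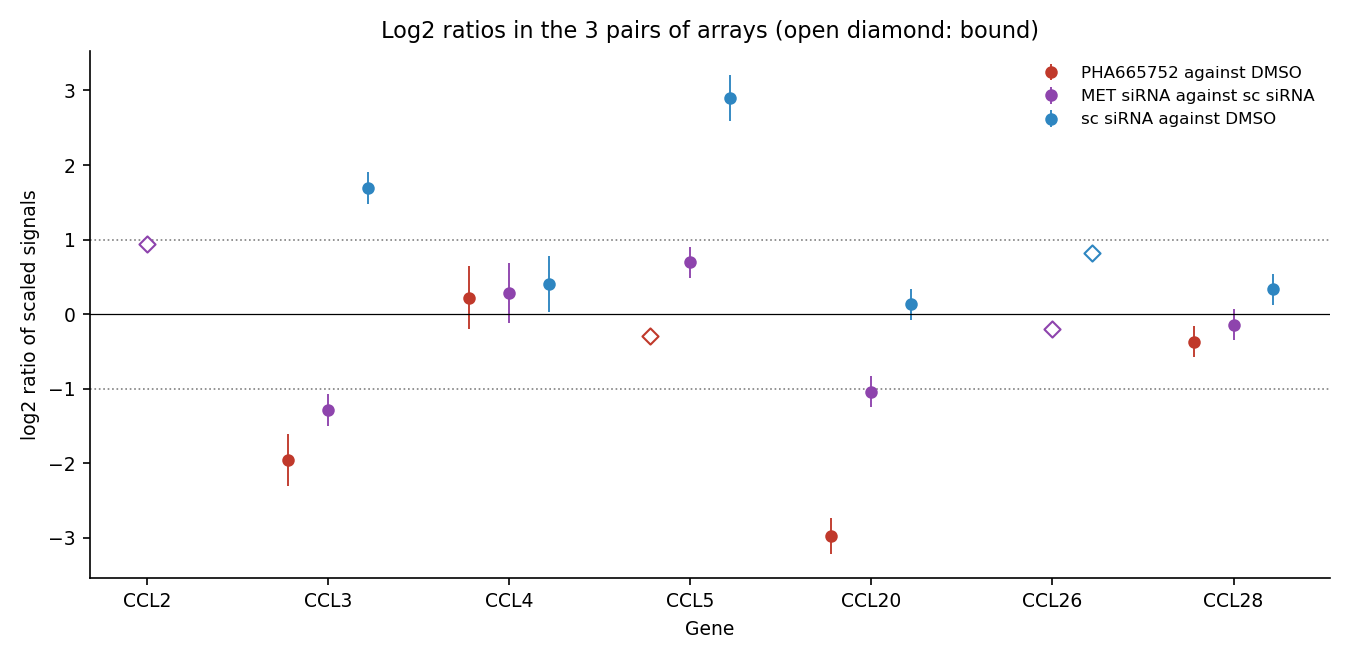
Log2 ratio of scaled signals for the CC chemokine probes with a ratio or bound, in the 3 pairs of arrays. Points are ratios of single arrays, bars the software's error estimate and open diamonds bounds. CCL20 and CCL3 lie below -1 in both MET pairs, and CCL5 and CCL3 lie above 1 between the controls.

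CCL2, the monocyte chemoattractant, was well above background only after MET siRNA. Over its usable spots the mean signal was 10.3 in DMSO, 7.64 under PHA665752, 10.4 after sc siRNA and 20.6 after MET siRNA. The usable spots ranged from 8.42 to 12.5 after sc siRNA and from 16.8 to 31.0 after MET siRNA. They did not overlap once spots with outlier marks were left out, but 2 of the 3 sc siRNA spots left out, at 25.9 and 28.3, lay inside the MET siRNA range. Spots belong to 1 hybridisation each and are not replicates of the condition. Of the 9 usable spots after MET siRNA, 5 carried the mark for well above background. The sc siRNA signal of 10.4 lay above the lowest signal well above background on that array. The bound was therefore the plain ratio of the 2 signals and not a minimum. It was 1.92-fold higher after MET siRNA, a log2 ratio of 0.94 ± 0.48. It depended on the processing and ran from 0.22 with an offset of 50 in the background correction to 1.08 with series matrix values. The level of dim probes also moved between these arrays: the median signal of probes not well above background was 4.12 after MET siRNA and 2.44 after sc siRNA, and its part in the CCL2 result was not tested.

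**Figure D3:**
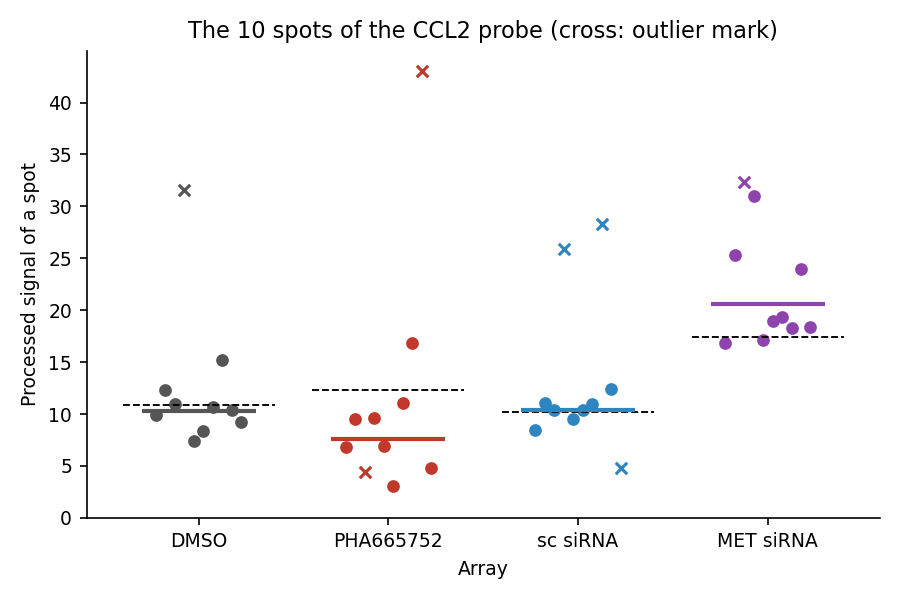
Processed signal of each of the 10 spots of the CCL2 probe on the 4 arrays, with crosses for spots that carried an outlier mark and were left out. The usable spots after MET siRNA lie between 16.8 and 31.0, above the usable ones after sc siRNA, which end at 12.5, while 2 crosses after sc siRNA lie at 25.9 and 28.3.

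CCL7 and CCL8, the other CCR2 ligands, stayed at background. CCL7 gave 2.39 in DMSO, 2.55 under PHA665752, 10.2 after sc siRNA and 3.65 after MET siRNA, none of them well above background. CCL8 gave 2.35, 2.14 and 3.65 in DMSO, sc siRNA and MET siRNA, and its spot under PHA665752 was left out as an outlier. The second CCL4 probe lay between 2.06 and 4.01. No direction can be read for these probes.

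CCL26 was well above background only after sc siRNA, at 19.4 ± 3.12, with 13.1 ± 3.04 for DMSO, 8.06 ± 3.09 for PHA665752 and 15.5 ± 4.57 for MET siRNA. The DMSO signal lay above the lowest one well above background there, so the bound between the controls was a plain ratio, not a minimum. It was 1.77-fold higher after sc siRNA, a log2 ratio of 0.82 ± 0.41, but 0.34 with plain background subtraction and 0.22 with an offset of 50. With MET siRNA the bound on the decrease was a log2 ratio of -0.21, which the software error of the signals spans.

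Between the controls, CCL5 and CCL3 were higher after sc siRNA. The signals of CCL5 were 17.5 ± 3.34 in DMSO and 109.6 ± 11.2 after sc siRNA, 7.46-fold higher after scaling (log2 ratio 2.90 ± 0.31), which put it at the 99.7th percentile of the probes. Its DMSO signal lay near the lowest signal well above background there, 10.8, and the ratio ran from 1.24 to 2.91 over the ways of processing. CCL3 was 3.22-fold higher after sc siRNA, at 1.69 ± 0.21. CCL5 and CCL3 were 2 of the 6 probes with a ratio or bound, where 3.06% of all 23629 probes were that much higher, 1.13% that much lower and 4.19% past 2-fold in either direction. All 6 lay above 0, with a median of 0.61 against 0.00 over all probes, and CCL28 was among them at 0.33 ± 0.20 and CCL4 at 0.41 ± 0.38. CCL26 was among them as a bound, whose sign was fixed by which array passed. Over the 5 measured on both arrays the median was 0.41, against 0.00 over all such probes. CCL5 was thus high on both transfected arrays and low on both others, while scaled CCL3 was highest after sc siRNA, followed by MET siRNA, DMSO and, lowest, PHA665752.

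The leukocyte markers moved as a sum in the same pair. The summed processed signal of the 12 markers was 8224 in DMSO, 7700.1 under PHA665752, 12314 after sc siRNA and 12624 after MET siRNA. Most of it was CD68, a lysosomal protein of macrophages that many tumour cells also express, at 7551, 7212, 11833 and 12170.0 in the same order. The median log2 ratio of the list between the controls was 0.02. Of the 8 markers with a ratio, 5 lay above 0 and 3 below. None was past 2-fold, where 2.89% of all genes were higher and 1.16% lower. CD68 was at 0.90, ITGAM at 0.43, CD14 at 0.05, CD3D at 0.03, PTPRC at -0.48 and CSF1R at -0.55. The part of these markers in the CCL5 and CCL3 results was not tested.

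**Figure D4:**
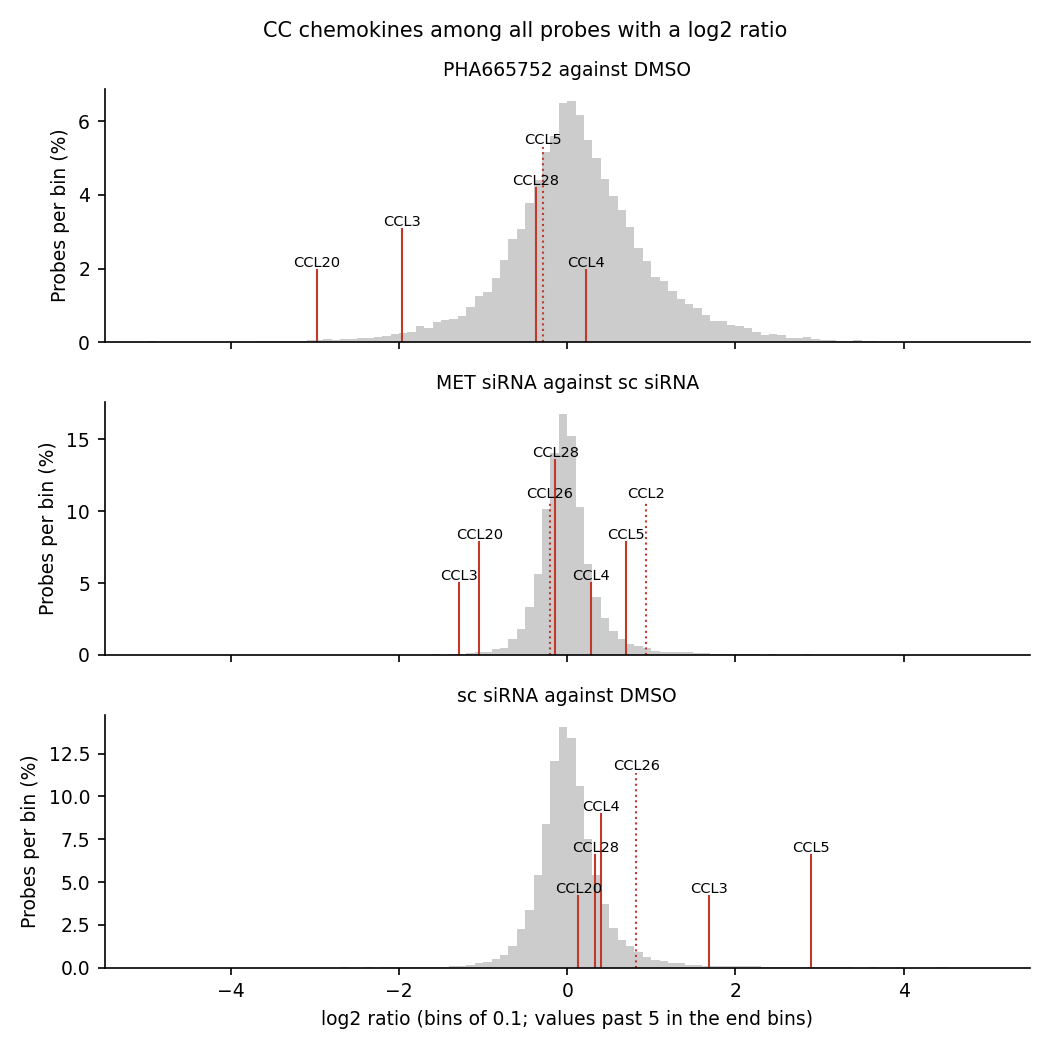
Distribution of log2 ratios over all probes with a ratio or bound in the 3 pairs of arrays (bars, percent of probes per bin of 0.1, values past 5 in the end bins), with each CC chemokine marked by a line, solid for a ratio and dotted for a bound. CCL20 and CCL3 fall in the lower tail of both MET pairs, where 7.43% and 0.811% of probes were more than 2-fold lower, and CCL5 falls in the upper tail between the controls.

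Of 16 other CC chemokines measured, 3 were well above background on all 4 arrays, 7 on none and the rest on some. These counts used the brightest probe of each gene. Over every probe, named or not, the shares were 58.2% on all 4 and 27.0% on none. Among the 3 was CCL24, which draws eosinophils, with signals of 3314 to 3757. None of the 6 with a ratio was past 2-fold under PHA665752, where 13.1% of all genes were higher and 8.04% lower. With MET siRNA 1 of 4 was, where 2.04% of all genes were higher and 0.696% lower. This was CCL11, another ligand of CCR3, with a signal of 85.6 against 2.19 after sc siRNA from a single spot. That bounds CCL11 at a log2 ratio of at least 3.02. It was 2.45 in DMSO and 2.62 under PHA665752, so the other 3 arrays were all at background. The CCL3L3 probes, for a near-identical copy of CCL3, were well above background only after sc siRNA, at 15.9 and 16.1, the array on which CCL3 was also highest. Whether the CCL3 and CCL4 probes also bind transcripts of such copies was not tested.

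Of the 14 receptors, 7 were well above background on all 4 arrays and 7 on none, by the brightest probe of each gene. Over every probe, named or not, these shares were 58.2% and 27.0%. CCR6, the receptor of CCL20, had log2 ratios of 0.47 under PHA665752 and -0.42 after MET siRNA, from signals of 442 in DMSO, 527 under PHA665752, 427 after sc siRNA and 330.0 after MET siRNA. CCR3, the receptor of CCL26 and CCL5, was higher under PHA665752 at a log2 ratio of 2.08, on signals of 14.7 in DMSO and 53.9 under PHA665752, and had 0.97 after MET siRNA. ACKR4, a scavenger receptor that binds CCL19, CCL21 and CCL25, was lower under PHA665752 at -1.73, from 184 in DMSO to 47.7, and had -0.20 after MET siRNA. They were the only receptors past 2-fold under PHA665752, 1 in each direction of 7 with a ratio, where 13.1% of all genes were higher and 8.04% lower. None of 7 was after MET siRNA, where 2.04% of all genes were higher and 0.696% lower. Between the controls 2 of 7 were higher, against 2.89% of all genes, CCR1 at 1.89 and ACKR4 at 1.73. CCR1, a receptor of CCL3 and CCL5, was picked after its value was seen and gave signals of 671 in DMSO and 2080.1 after sc siRNA.

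Pathway genes known to act on chemokine transcription were counted beside these. Of 27 NF-kB pathway genes with a ratio for PHA665752, 7 were more than 2-fold higher and 3 lower, where 13.1% of all genes with a ratio were higher and 8.04% lower, and their median was 0.07, as over all genes. With MET siRNA 1 of 25 was higher and none lower, near the 2.04% and 0.696% of all genes. This was MAP3K14, at 1.03 after MET siRNA and 1.34 under PHA665752. TNFAIP3, which shuts down NF-kB signalling, was lower under PHA665752 at -1.96 and had -0.35 after MET siRNA. NFKBIZ, a nuclear co-factor of NF-kB, was higher under PHA665752 at 1.41 and had 0.44 after MET siRNA. Between the controls 4 of 27 were higher and none lower, where 2.89% of all genes were higher. These were BIRC3 at 3.09, TLR3 at 2.02, MYD88 at 1.45 and TNFAIP3 at 1.22, of which BIRC3, TLR3 and MYD88, an inhibitor of apoptosis, a sensor of double-stranded RNA and a Toll-like receptor adaptor, were named after their values were seen.

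The MAPK output and AP-1 list, genes that report on signalling downstream of receptor kinases, lay at a median of -1.36 on the log2 scale under PHA665752, with 10 of 17 more than 2-fold lower and 4 higher, against the same 8.04% and 13.1% of all genes. With MET siRNA the median was -0.61, 2 of 17 were lower and 1 higher, against a median of -0.02 over all genes, of which 0.696% were lower and 2.04% higher. SPRY4, a feedback inhibitor of the pathway, was at -4.24 under PHA665752 and -1.16 after MET siRNA. FOSL1, an AP-1 subunit, was at -3.36 and -0.79. ATF3, a stress-induced member of the same family, went the other way at 3.61 and 1.67. Also more than 2-fold higher under PHA665752 were EGR1 at 2.945, FOS at 1.96 and JUNB at 1.16. After MET siRNA these had 0.08, 0.42 and 0.43.

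Of 8 genes of IL-4 and IL-13 signalling, which drives CCL26 in epithelial cells, 1 was higher and 1 lower under PHA665752, about the 13.1% and 8.04% of all genes. These were STAT6, the transcription factor of the pathway, at 1.01 and SOCS1, a suppressor of cytokine signalling, at -2.83. None was past 2-fold after MET siRNA, where 2.04% of all genes were higher and 0.696% lower. Of 7 genes that control AU-rich mRNAs, the class to which many chemokine transcripts belong, TIA1 was at 1.08 and HNRNPD at -1.01 under PHA665752. This was again 1 in each direction, and none was past 2-fold after MET siRNA, against the same shares of all genes. Counts of these short lists carry no test.

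The genes whose 4 signals ran most like a chemokine's were ranked by Euclidean distance between scaled log2 signals centred on their mean, over 4 arrays and 16589 named probes well above background on all of them. Nearest to CCL20 were GPR65, a proton-sensing receptor, at a distance of 0.157, DUSP6, a phosphatase of ERK, at 0.216 and ESM1, a secreted proteoglycan, at 0.273. DUSP6 had log2 ratios of -3.27 under PHA665752, -1.14 after MET siRNA and 0.04 between the controls, against -2.98, -1.04 and 0.13 for CCL20. Nearest to CCL3 were IL7R, the interleukin-7 receptor chain, at 0.188, BEST3, a chloride channel, at 0.468 and DGKG, a diacylglycerol kinase, at 0.560. IL7R had -2.01, -1.12 and 1.44 in the same order, against -1.96, -1.29 and 1.69 for CCL3. Nearest to CCL4 were CTAGE4, TGFB3 and FNIP1, at 0.0392 to 0.0714, and to CCL28 BANF1, VPS25 and DCP1A, at 0.0420 to 0.0477, all of them genes that changed little. With 4 arrays a short distance is common among genes with small changes, and it describes these arrays only.

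The direction of CCL20 and CCL3 in both MET pairs held under each of the 9 other ways of processing that gave them a value. The log2 ratio of CCL20 under PHA665752 ran from -3.24 to -1.75 and that of CCL3 from -2.27 to -0.52. With MET siRNA they ran from -1.34 to -0.78 and from -1.59 to -0.87. The smallest sizes came from a background correction that adds an offset of 50 to every signal, which pulls dim genes toward no change, and it took CCL3 under PHA665752 and both genes after MET siRNA inside 2-fold. CCL5 between the controls ran from 1.24 to 2.91 and CCL3 from 1.15 to 1.70. CCL4 changed sign in both MET pairs.

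**Figure D5:**
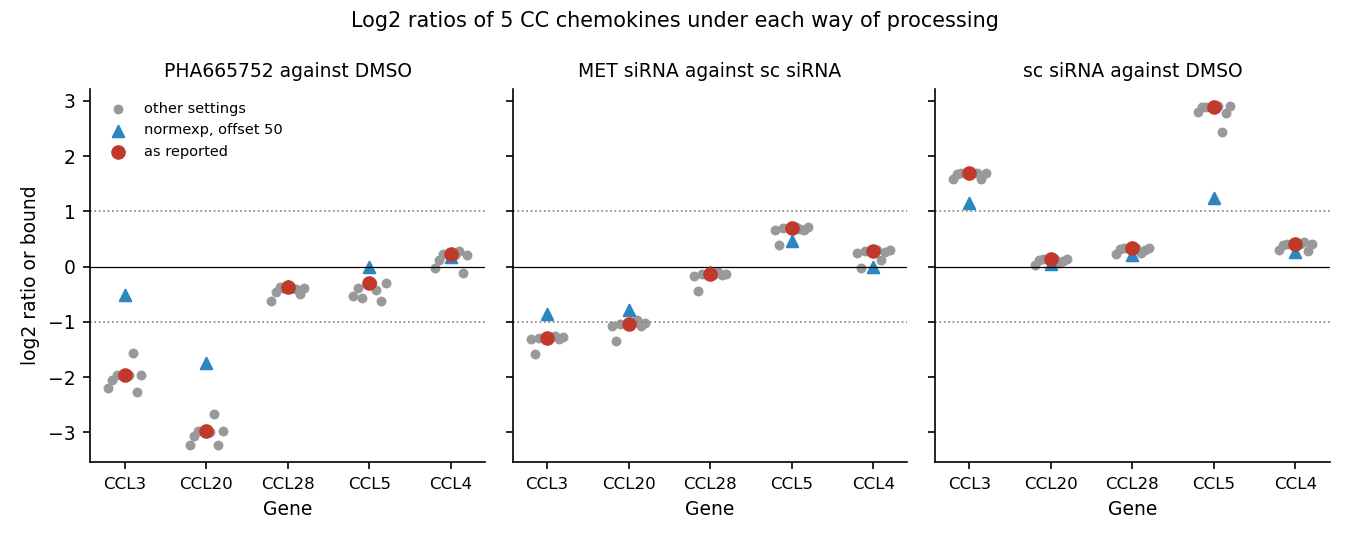
Log2 ratios or bounds of 5 CC chemokines in the 3 pairs of arrays as reported (red), with an offset of 50 in the background correction (blue triangles) and under the other settings (grey). CCL20 and CCL3 stay below 0 in both MET pairs, and the offset gives their smallest changes.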

How the data were processed

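Total RNA of Hs746T cells was hybridised by the authors to single-colour Agilent human 44K V2 arrays, 1 per condition, on 1 slide. They deposited scanner output of Feature Extraction (11.5.1.1). Its processed signal is a background-subtracted linear intensity, with no normalization from array to array. The series matrix held the same values, within 0.05 for the 33128 probes spotted once, and served as an alternative. Its columns are intensities deposited by the authors.

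From these, control spots and spots marked as outliers (1.69% to 5.58% per array) were left out, log2 signals were averaged over the usable spots of each probe, and the array's own 75th percentile was then taken off. A probe passed as well above background unless most of its usable spots lacked Feature Extraction's mark. Where only 1 array of a pair passed, the ratio was taken against the higher of the dim probe's own signal and the lowest signal well above background on that array. It was kept only if the array that passed was the higher, which fixes the sign of a bound. If the dim probe's own signal was the higher, the bound is the plain ratio of the 2 signals and not a minimum. No spot was saturated. Precision is limited by the number of arrays. The 999 probes spotted 10 times gave a noise between spots of 0.0900 for a log2 ratio. Probes were named by RefSeq accession through a table of GRCh38.p14, which named 25771 probes (75.5%) and gave the promoter windows. The array's own annotation uses an older build, and no gene coordinates were taken from it.

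The genes named were the 9 chemokines, MET and the genes nearest to each chemokine detected on all arrays. Added to them, from 8 lists except the leukocyte and cell line markers, were up to 4 genes per direction past 2-fold under PHA665752 or MET siRNA. Leukocyte and cell line markers, CCR6, CCL24 and CCL3L3 were named outside this rule, as were the genes picked after their values were seen. For a gene with several probes the brightest stood for it in the lists. Members and lists were chosen with earlier results of these data known. There were 10 alternatives: other scalings, background corrections, filters, outlier marks, series matrix values and 1 value per gene. Calculations were tested on simulated data and used limma 3.58.1 in R 4.3.3 and, in Python 3.11.15, pandas 2.3.3, numpy 2.4.6 and scipy 1.17.1, with plots from matplotlib 3.10.9. Values of some genes of the lists are not reported here.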

Additional observations from a re-analysis of the deposited data

How the results depend on the processing

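Across the alternatives, no single log2 ratio of a chemokine past 2-fold changed its direction. The counts past 2-fold depended on the background correction: normexp with an offset of 50 left 1 probe under PHA665752 (CCL20, with CCL3 at -0.52) and 0 after MET siRNA, and plain background subtraction left 1 after MET siRNA, with CCL20 at -0.97. With series matrix values CCL2 also passed after MET siRNA, at 1.08, but with normexp its bound was 0.22 and with the median of the probes well above background 0.64. The CCL26 bound between the controls was 0.22 with normexp and 0.34 with plain background subtraction, against 0.82. The median log2 ratio of the chemokine probes moved to -1.16 under PHA665752 when both signals of a pair had to be well above background, to -0.44 after MET siRNA when arrays were scaled to the median of the probes well above background, and to 0.24 between the controls with normexp. Without a filter on dim probes the median after MET siRNA was 0.07, above 0, and 3 probes were past 2-fold, CCL7 at background among them.

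Scaling moved all probes together. The median over all probes under PHA665752 was -0.16 at the 50th percentile against 0.09 as reported, and 43.2% of the probes past 2-fold were higher against 63.3%, with 52.7% after quantile normalization. MET itself was past 2-fold under PHA665752 with 3 scalings, at -1.17 with the 50th percentile, -1.02 with the median of the probes well above background and -1.01 with quantile normalization. With MET siRNA, scaling to the median of the probes well above background put that median at -0.32 against -0.03, and 41.3% of the probes past 2-fold were higher against 72.3%. In both cases CCL3 and CCL20 remained past 2-fold and lower. Normexp left 10.7% of all probes past 2-fold under PHA665752 and 0.540% after MET siRNA, against 20.3% and 2.93%.

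No paired analysis was possible because each condition had 1 array, and for the same reason no array was left out. The signals of CCL2, CCL4 and CCL26 on each array lie near the background, and their ratios are not resolved at this signal over background. CCL5 without transfection also lies near the background, and its ratio under PHA665752 is not resolved. The size of the CCL5 ratio between the controls rests on that dim DMSO signal, and it ran from 1.24 to 2.91.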
